A study of Mus musculus with 4 samples.

Results

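The ribosomal protein genes were the 86 genes, of 31053 in the annotation of the series, whose symbol begins with Rpl or Rps followed by a digit, or is Rpsa, Rplp0, Rplp1 or Rplp2. Symbols of pseudogenes (9 of them) and of the Rps6k kinases were left out by the same rule. All 86 were found under the same symbol in GENCODE M21. The rule also took in Rps19bp1, which encodes a binding partner of a ribosomal protein and not a subunit.

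Thymocytes were profiled as single cells by droplet 3′ sequencing, which counts unique molecular identifiers (UMIs), about one per captured mRNA. There were 4 libraries, each from a different FVB/N mouse. WT was a wild type thymus at 6 weeks of age, and the preleukemic library came from a Tal1/Lmo2 transgenic thymus at 6 weeks, before leukemia. T-ALL#1 (labelled female) and T-ALL#2 (labelled male) were thymi of leukemic Tal1/Lmo2 mice aged 3 months. In this line the proximal Lck promoter drives both transgenes in thymocytes. In every library red cells were lysed, and viable singlets were sorted by exclusion of 7-AAD. WT and the preleukemic stage have a single library each, so values of the stages are compared without a test between groups, and leukemia cannot be told apart from the older age of the leukemic mice.

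A ribosome is built from a large and a small subunit, each an assembly of ribosomal RNA with a full set of ribosomal proteins. The large subunit holds the peptidyl transferase centre and carries the P stalk, which recruits translation factors, and the small subunit holds the decoding site. Many ribosomal protein mRNAs start with a run of pyrimidines, the terminal oligopyrimidine tract, through which their translation follows growth signals, and early thymocytes that pass the pre-TCR checkpoint grow and divide fast.

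The first 30 bases around the RefSeq start are shown for the genes on which the comparisons turn, so that members that moved together can be set beside each other. Each window holds 12 bases before the annotated start and runs 5′ to 3′ on the gene's strand, from build GRCm38.p6. Capitals mark the run of pyrimidines at or next to the start. The first 4 genes parted downward from the other members in both leukemias, Rpl15 and Rps2 parted upward in T-ALL#2, and the last 3 were among the most raised in Il2ra-positive cells. Rpl37a, Rpl39 and Rps28 also parted downward but are not shown, and their runs were shorter, at 3, 5 and 4 pyrimidines.
Rps27 (chr3:90213631-90213660, minus strand): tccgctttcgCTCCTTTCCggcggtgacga
Rps27rt (chr9:114982722-114982751, minus strand): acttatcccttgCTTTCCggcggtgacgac
Rpl38 (chr11:114668568-114668597, plus strand): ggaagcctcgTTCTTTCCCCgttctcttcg
Rpl35 (chr2:39005114-39005143, minus strand): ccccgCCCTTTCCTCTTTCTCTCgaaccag
Rpl15 (chr14:18270969-18270998, minus strand): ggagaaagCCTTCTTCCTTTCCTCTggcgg
Rps2 (chr17:24720051-24720080, plus strand): cagtcgagaTCTCgcgcttcttggagcact
Rpl22l1 (chr3:28805496-28805525, plus strand): cggcgcaagcccgTTCTCTTCCCacggctg
Rpl14 (chr9:120571505-120571534, plus strand): cgggCCCTCTCTCTTCTCgctgagcgccgc
Rps27l (chr9:66946074-66946103, plus strand): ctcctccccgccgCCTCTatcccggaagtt

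In these windows the run was long in Rpl35, Rpl15 and Rpl14 and short in Rps2 and Rps27l. A tract of at least 6 pyrimidines lay at the annotated start in 25 of the 66 members with a window (37.9%), against 14.4% of all 27025 genes with one. Runs elsewhere in a window were not counted, and the annotated starts were not checked against those used in these cells. A gene without a counted tract is therefore not shown to lack one. The letters CTTTCC, read on either strand of the 300 bases from 250 before to 50 after the start, occurred in 54.5% of members and in 29.3% of all genes. Among the 9 members that parted downward in both leukemias, 4 of 7 with a window had such a tract, and among the remaining members 20 of 56 had one. Rps27 and its retrocopy Rps27rt share the end of the tract and the bases that follow it. Whether reads were split between this gene and its retrocopy was not tested, and the levels of both are uncertain.

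Kept cells had over 500 genes and under 10% mitochondrial UMIs, and T-ALL#2, whose matrix holds every barcode, had a lower limit on UMIs as well, which left no cell under 2000. These were 4220 WT, 5576 preleukemic, 5773 T-ALL#1 and 1975 T-ALL#2 cells, with 24042062 to 70745712 summed UMIs per library. Median depth rose in that order, at 3801, 4888, 8742 and 17581 UMIs per cell. The libraries shared 0 to 9 cell barcodes per pair. The WT and preleukemic libraries, both labelled male, went against that label, with Xist at 1380 and 1869 CPM (UMIs of a gene per 1000000 UMIs of the library) and 1 and 5 Y-linked UMIs, whereas T-ALL#2 had 0.083 CPM of Xist and 4413 Y-linked UMIs. Every pan-thymocyte marker was detected in every library, with a summed level of 2836 to 5175 CPM over 6 genes. B cell markers summed to 73.1 to 191 CPM, myeloid markers to 75.8 to 381 CPM and stromal markers to 34.4 to 77.1 CPM. Erythroid markers summed to 90.5 CPM in WT and at most 0.367 CPM elsewhere. The processing software (Cell Ranger 3.0.2 for 3 libraries, 4 for T-ALL#2), the sequencing chemistry, which the labels give in more than 1 version without naming libraries, and the depth cannot be told apart from the animal.

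Ribosomal protein mRNAs took a larger share of the transcriptome in the transgenic libraries than in WT, and the largest in T-ALL#2. The median share of a cell's UMIs from the members was 14.3% in WT (95% interval of the median over cells 13.9 to 14.8%). It was 19.5% in the preleukemic library (19.2 to 19.8%), 25.2% in T-ALL#1 (25 to 25.5%) and 36.3% in T-ALL#2 (36.1 to 36.5%). Outside T-ALL#2 the cells of the libraries overlapped widely, with the middle 90% of cells at 3.47 to 31.0% in WT, 6.68 to 33.7% in preleukemic and 14.6 to 36.2% in T-ALL#1. In T-ALL#2 this range was 27.8 to 43.8%, so most of its cells lay above most cells of the other libraries. These intervals cover the spread of cells within 1 animal, not the spread between animals.

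Part of this order moved with depth. In WT the median share was 4.81% in cells under 2000 UMIs and 22.6% in cells from 4000 to under 8000. In that last range the preleukemic median was 19.1%, the T-ALL#1 median 22.5% and the T-ALL#2 median 33.7%. At that depth the WT and T-ALL#1 medians lay within each other's 95% intervals, the preleukemic library was lowest and T-ALL#2 alone stood above. The other depth ranges kept the order of the libraries. From 2000 to under 4000 UMIs the medians were 11.9%, 15.7%, 18.6% and 28.8% in WT, preleukemic, T-ALL#1 and T-ALL#2, from 8000 to under 16000 they were 24.1%, 27.0%, 29.4% and 38.4%, and from 16000 upward 24.3%, 27.3%, 27.9% and 35.9%. In the deepest range the intervals of preleukemic and T-ALL#1 cells overlapped. Thinning every cell to 2000 UMIs, which left out 991, 350, 94 and 0 cells, gave 17.9%, 20.1%, 25.3% and 36.2%, where the mix of cell classes still differed. The T-ALL#2 matrix also holds 1187985 barcodes with at most 100 UMIs, and 25.7% of their UMIs came from members, below the cells of that library. The part of free RNA in the share was not tested, since the matrices of the other libraries hold called cells alone.

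**Figure D1:**
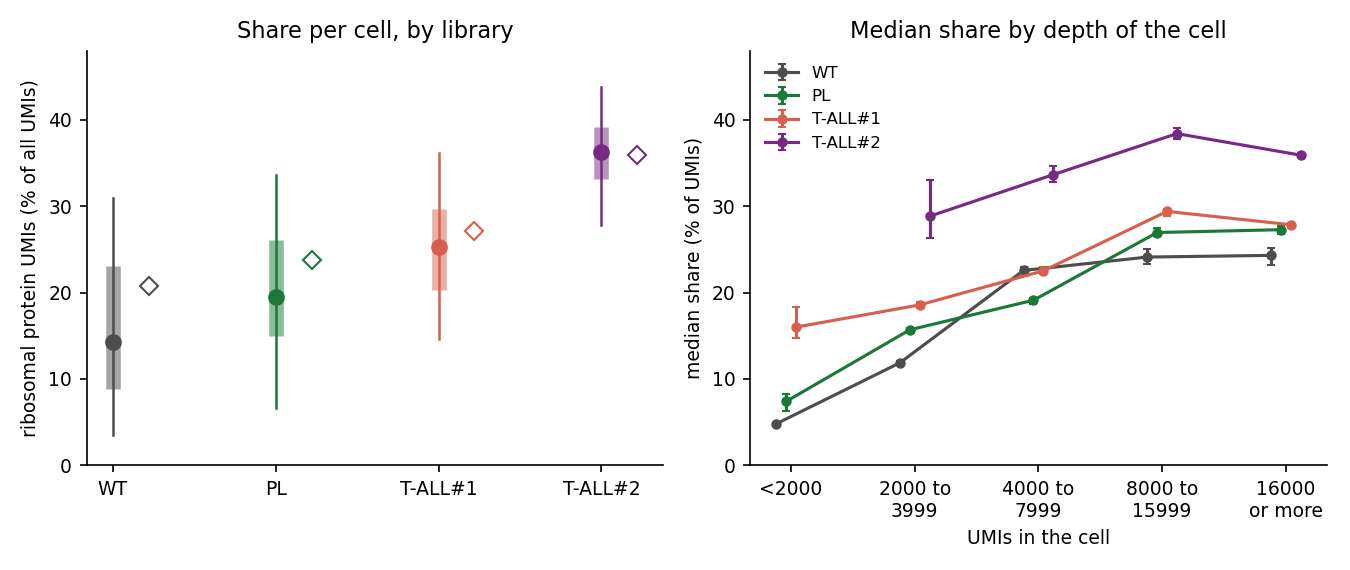
Share of a cell's UMIs from the ribosomal protein genes (percent). Left, per library, with the median (dot), quartiles (bar), the middle 90% of cells (line) and the share of summed UMIs (diamond); right, the median by UMIs per cell with its 95% interval, where T-ALL#2 lies above the other libraries in every depth range that holds its cells. In the lowest of these ranges the T-ALL#2 cells come from the upper part alone, because of the limit on UMIs.

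Both subunits contributed to the change. Large subunit genes, stalk included, held 11.1%, 12.8%, 15% and 19.7% of summed UMIs in WT, preleukemic, T-ALL#1 and T-ALL#2, and small subunit genes 9.61%, 10.9%, 12.2% and 16.2%. The ratio of large to small stayed between 1.16 and 1.22. Of the 86 members, 83 reached a mean of 10 CPM over the libraries (46 large subunit, 33 small subunit, 3 stalk and Rps19bp1). The others were the paralogs Rpl10l, with no UMI in any library, Rpl39l with 4, 13, 2 and 0 UMIs and Rpl3l with 2, 36, 8 and 1 UMIs in the order above. Paralogs of this kind are known for expression in testis or muscle.

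Levels were compared between libraries as the log2 ratio of CPM over summed cells. From WT to preleukemic the members shifted by a median log2 ratio of 0.20 (95% interval of the median over members 0.17 to 0.23), and 76 of 83 lay above 0, as did 46.7% of all genes at 10 CPM or more. Over the preleukemic library, the median was 0.38 in T-ALL#1 (0.24 to 0.40), with 62 members above 0 against 41% of all genes. In T-ALL#2 it was 0.65 (0.54 to 0.72), with 75 members above 0 against 28.3% of all genes. The medians of all genes were −0.02, −0.13 and −0.44 in the same comparisons. The size of the shift depended on the scaling and the cells. With TMM factors the median was 0.63 in T-ALL#1 over preleukemic and 1.16 in T-ALL#2, and from WT to preleukemic the median was 0.12 with a mitochondrial limit of 5% and 0.36 with cells weighted equally. The leukemic ratios share the preleukemic library and are not independent of each other, and each rests on 1 library a side.

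Among large subunit genes, Rpl8 was measured at 2297, 2652, 4703 and 4755 CPM in WT, preleukemic, T-ALL#1 and T-ALL#2, and Rpl3, which lies near the peptidyl transferase centre, at 1747, 2052, 3408 and 4058 CPM. For both genes the leukemias stood clear of the other libraries. Rpl5 and Rpl11, which with 5S rRNA form the particle that binds Mdm2, were at 1943, 2132, 2799 and 2699 CPM and at 2521, 2889, 3904 and 4906 CPM. Rpl5 thus had nearly the same level in both leukemias, while Rpl11 was highest in T-ALL#2. Rpl10, a late-joining subunit of the large ribosome that is mutated in some human T-ALL, varied less, with 1900, 2070, 2224 and 2640 CPM. Rpl22, an RNA-binding member that is required for αβ T-cell development, was at 1550, 1689, 1911 and 2459 CPM.

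Among small subunit genes, Rps2, which lies at the mRNA entry side, was at 2216 CPM in WT, 2288 CPM in preleukemic cells, 3792 CPM in T-ALL#1 and 5218 CPM in T-ALL#2. Rpsa, whose protein also acts as a laminin receptor, was at 3870, 3923, 5959 and 8095 CPM, and the X-linked Rps4x at 3019, 3563, 4817 and 5607 CPM. WT and preleukemic levels were close for Rps2 and Rpsa, and both leukemias lay above them. Of the stalk genes, Rplp0 was at 3435, 3925, 6107 and 7519 CPM. Rplp2 was at 2960, 3042, 3494 and 4246 CPM, and Rplp1 at 4304, 3635, 5022 and 6009 CPM, lowest in the preleukemic library.

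Most members moved together, and a set of short members did not. A member was taken to part from the common shift where its log2 ratio lay 0.5 or more from the members' median. From WT to preleukemic, Rpl29 alone parted, downward, where 19.8% of all genes lay that far below the members' median, and no member parted upward (5.35% of all genes). Over the preleukemic library 15 members parted downward in T-ALL#1 (50.4% of all genes) and 12 in T-ALL#2 (78.1%). Departures were measured from the members' own median, which lay above that of all genes in each comparison. These shares of all genes therefore do not measure how closely the members moved together. No member parted upward in T-ALL#1 (5.29% of all genes), and in T-ALL#2 Rpl15 and Rps2 did, at 1.19 each (2.56%). Rpl15, a large subunit gene, was at 2348, 3103, 4058 and 7100 CPM. Near the limit, Rps26 at −0.52 from the median was just inside and Rpl35a at −0.48 just outside in T-ALL#1.

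The 9 members that parted downward in both leukemias were Rpl29, Rpl35, Rpl37a, Rpl38 and Rpl39 of the large subunit and Rps27, Rps27rt, Rps28 and Rps29 of the small. Rps29 was at 6779, 7767, 2762 and 4895 CPM in WT, preleukemic, T-ALL#1 and T-ALL#2, with log2 ratios of −1.49 and −0.67 over the preleukemic library. Rps27, a zinc-finger protein of the small subunit, was at 4549, 4995, 2000 and 3125 CPM (−1.32 and −0.68). Both were thus lower in the leukemias than in either non-leukemic library. Rpl38, known for a role in the translation of Hox mRNAs, was at 2477, 3111, 1382 and 2804 CPM (−1.17 and −0.15), with T-ALL#1 lowest and T-ALL#2 between WT and preleukemic. Rps28 was at 2971, 3388, 1396 and 3193 CPM (−1.28 and −0.09), and Rpl35 at 2024, 2224, 1024 and 1827 CPM (−1.12 and −0.28). In these genes too the low library was T-ALL#1. For Rpl29, Rpl35, Rpl38 and Rps28 the values below 0 in T-ALL#2 turned positive with TMM scaling, which shifts all genes of a library alike.

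Rpl37a (2872, 3676, 2014 and 3768 CPM) and Rpl39 (3746, 4887, 2704 and 4912 CPM) were about as high in T-ALL#2 as in the preleukemic library, which placed them 0.62 and 0.65 below the members' median there. Rps27rt, at 299, 336, 293 and 174 CPM, was lowest in T-ALL#2, unlike Rps27. Rpl29, at 172, 119, 32.6 and 86.6 CPM, was low throughout. Many processed copies of Rpl29 exist and reads shared with them may not be counted, so its level is uncertain. In T-ALL#1 the log2 ratios of the other 6 members that parted downward were −0.72 for Rps21, −0.51 for Rpl37, −0.48 for Rpl36, −0.23 for Rpl41, −0.15 for Rpl34 and −0.14 for Rps26. The remaining members that parted downward in T-ALL#2 were Rpl13a (−0.05), Rpl7l1 (0.07) and Rps19bp1 (0.12). Rack1, a scaffold on the small subunit whose symbol falls outside the rule, had log2 ratios of 0.55 and 0.53.

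Coding length went with these departures, although the rule did not use it. The 9 members had coding sequences of 153 to 480 bases with a median of 252, and the other 74 measured members of 75 to 1257 bases with a median of 468. The 11 members of at most 300 coding bases had median log2 ratios of 0.20 from WT to preleukemic and, over preleukemic, of −0.85 in T-ALL#1 against 0.01 in T-ALL#2. The 182 other genes with coding sequences this short had medians of 0.04, −0.04 and −0.10. They were matched on coding length and not on the length of the whole mRNA. Over the 83 members, Spearman's rho between coding length and log2 ratio was 0.05, 0.58 and 0.34 in the same order, given as a description of genes from shared libraries. Capture chemistry and read mapping, which may differ between libraries, were not tested for a part in this pattern.

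**Figure D2:**
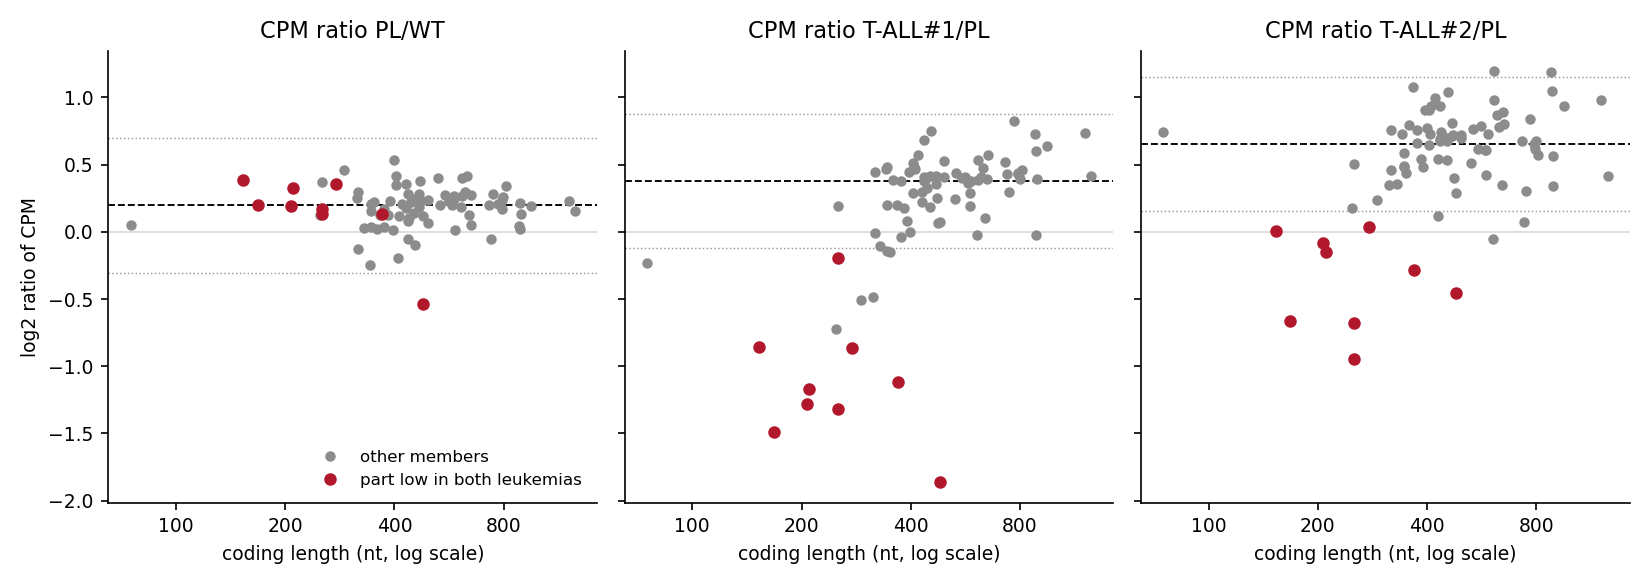
Log2 ratio of CPM between libraries against coding length (bases, log axis) for the 83 measured members, with the members' median (dashed), departures of 0.5 (dotted) and the 9 members that parted downward in both leukemias (red). Short members lie below the others in T-ALL#1 over preleukemic, with 11 members of at most 300 bases at a median of −0.85.

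Because the 9 genes were chosen on these ratios, their joint share is a description. They held 12.5% of all member UMIs in WT, 12.9% in preleukemic cells, 5.01% in T-ALL#1 and 6.90% in T-ALL#2. A low share was a feature of nearly all cells of a library. In cells with at least 300 member UMIs, the middle 90% of cells lay at 10.5 to 15.7% in WT and 11.1 to 17.1% in the preleukemic library, against 4.25 to 6.90% in T-ALL#1 and 6.17 to 8.42% in T-ALL#2. Leukemic and non-leukemic ranges did not overlap. Cells with at least 5 UMIs of B cell or myeloid markers and no Cd3 UMI also differed between libraries, at 12.1% (11 cells) in WT, 15.8% (18 cells) in preleukemic, 7.51% (7 cells) in T-ALL#1 and 10.2% (6 cells) in T-ALL#2. These few cells of the leukemias lay below those of WT and preleukemic thymus, and above the middle 90% of cells of their own library. In the droplets of T-ALL#2 with at most 100 UMIs, which were deposited here for that library alone, the share was 6.63%.

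**Figure D3:**
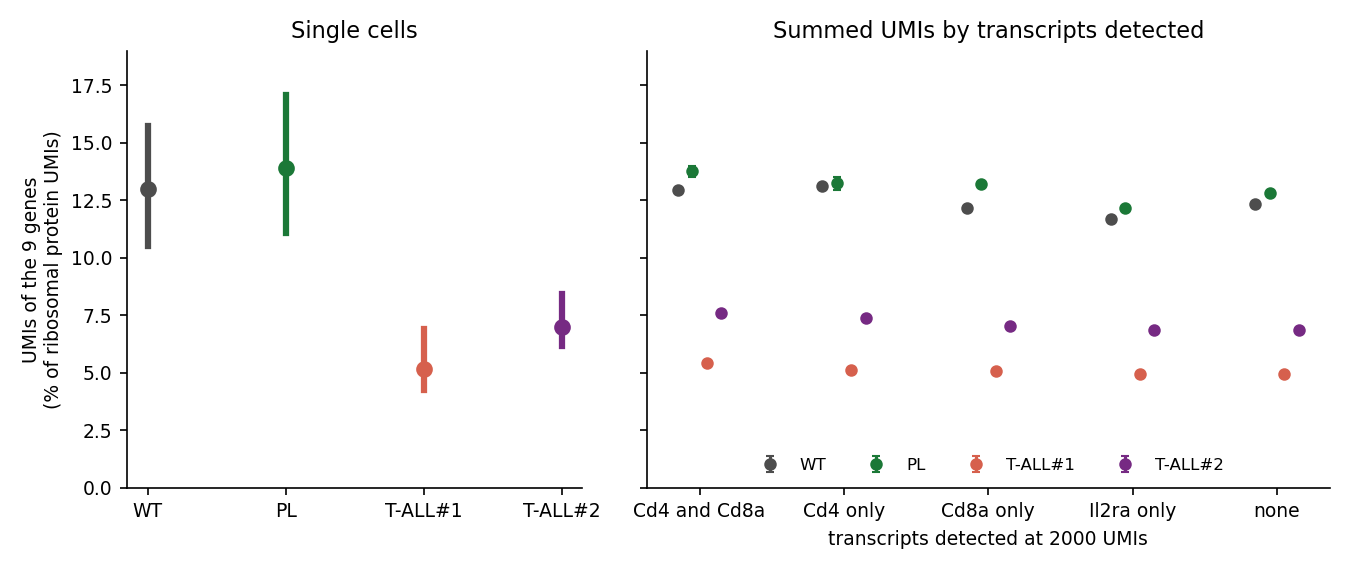
The 9 members Rpl29, Rpl35, Rpl37a, Rpl38, Rpl39, Rps27, Rps27rt, Rps28 and Rps29 as a percent of all member UMIs, left per cell (median and the middle 90% of cells) and right summed by Cd4, Cd8a and Il2ra detection with exact 95% intervals. Both leukemias lie below WT and the preleukemic library in every class.

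Cells were next classed, at 2000 UMIs each, by detection of the coreceptors Cd4 and Cd8a and of Il2ra, the CD25 chain that marks the CD4-negative, CD8-negative stages before the pre-TCR checkpoint. Ribosomal protein share was higher in Il2ra-positive cells without coreceptors than in cells with both coreceptors in every library. In WT the median was 26.2% (48 cells) against 11.9% (1042 cells), and in the preleukemic library 26.0% (206) against 18.6% (77). T-ALL#1 had 25.9% (529) against 19.8% (956), and T-ALL#2 36.2% (401) against 32.2% (39). The difference shrank in that order, at 14.2, 7.45, 6.1 and 3.9 percentage points, with a mean of 7.92. An exact sign-flip permutation test over the 4 libraries gave p = 0.12 (two-sided), the smallest p that 4 libraries allow. Before thinning the Il2ra-positive cells were deeper, with medians of 10342 against 3121.5 UMIs in WT and 7972 against 4368 in preleukemic. T-ALL#1 had 11686 against 4310 and T-ALL#2 20292 against 7444. Thinning does not remove this difference between cells, and its part in the shares was not tested.

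The Il2ra-positive cells of WT, preleukemic and T-ALL#1 thymus had nearly the same share. In cells with both coreceptors WT was the lowest, while the intervals of preleukemic (17.75 to 19.95%) and T-ALL#1 cells (19.15 to 20.25%) overlapped. The preleukemic library and T-ALL#1 lay furthest apart in cells with none of the 3 genes. Cells with Cd4 alone were at 23.3%, 24.8%, 22.4% and 36.0% in the order of the libraries, and cells with Cd8a alone at 18.5%, 21.1%, 23.7% and 35.5%. Cells with none of the 3 genes were at 24.2%, 19.4%, 29.4% and 36.6%, and made up 76.5% of preleukemic cells. Within each class the median log2 ratio of the members was positive in T-ALL#1 over preleukemic (0.12 to 0.47) and in T-ALL#2 over preleukemic (0.42 to 0.74). From WT to preleukemic it was 0.43 in cells with both coreceptors, 0.06 in Il2ra-positive cells and −0.07 in cells with none of the 3 genes.

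**Figure D4:**
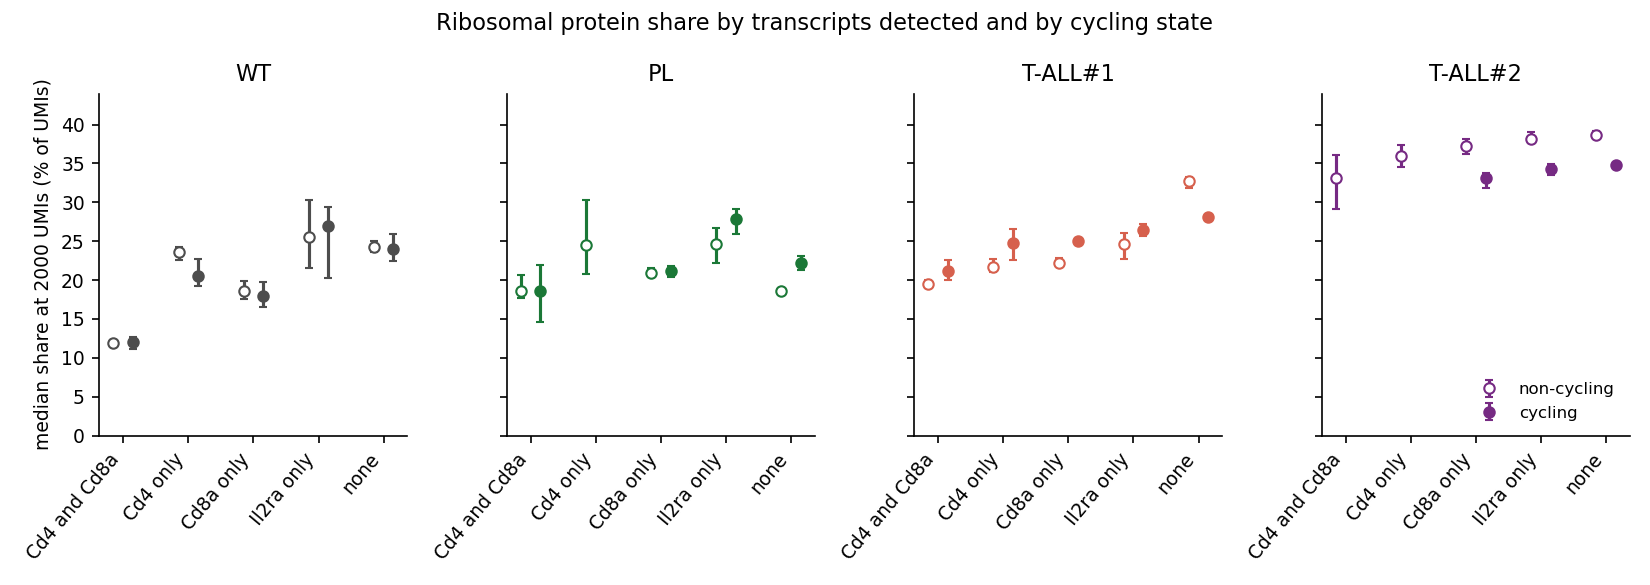
Median ribosomal protein share of UMIs (percent, cells thinned to 2000 UMIs) by marker class and library, with open symbols for non-cycling and filled symbols for cycling cells. WT cells with Cd4 and Cd8a are lowest at about 12%, and every class of T-ALL#2 lies above the same class in the other libraries.

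For single genes, counts were summed per library and class and fitted with edgeR's quasi-likelihood test with the library as a block, with Benjamini-Hochberg adjustment over all 9953 genes tested. In Il2ra-positive cells 72 of 83 members rose and none fell at an adjusted p under 0.05, where 10.6% of all genes rose and 7.87% fell. At an unadjusted p under 0.05 there were 81 members higher and 0 lower, and DESeq2 called 71 and 0. The members' median log2 fold change was 0.60 (0.09 to 1.21), against −0.01 over all genes. By CPM, 67 members were higher in 4 of 4 libraries, a count that was not made over all genes. Without the preleukemic library, whose class with both coreceptors held 77 cells, 8 members passed, and without WT, T-ALL#1 or T-ALL#2 there were 75, 61 and 52. With sums scaled to library size alone 33 rose, and the median was 0.45. In non-cycling cells alone (defined below) 64 rose and none fell, and 503 of 8521 genes were called in either direction. The libraries' own median log2 ratios of member CPM were 0.86, 0.50, 0.30 and 0.12, smallest in T-ALL#2.

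The leading genes of this comparison were a paralog of the small subunit and genes of both subunits. Rps27l, a paralog of Rps27 that is known as a target of p53, rose most. It was at 538 against 259 CPM in WT, 535 against 254 in preleukemic, 549 against 253 in T-ALL#1 and 643 against 326 in T-ALL#2, a log2 fold change of 1.21 ± 0.12 (SE, 8 sums of 4 libraries, edgeR adjusted p = 0.00089). The groups did not overlap across libraries. Rps2 was at 3409 against 1081, 3047 against 1314, 3954 against 2430 and 5244 against 3989 CPM (1.14 ± 0.17, edgeR adjusted p = 0.0036), with the widest gap in WT. Rpl22l1, a paralog of Rpl22, was at 914 against 307, 874 against 397, 784 against 535 and 1481 against 1056 CPM (1.08 ± 0.17, edgeR adjusted p = 0.0036). Rpl14 rose by 1.02 ± 0.13 and Rpl36a by 1.00 ± 0.18, the latter with an adjusted p of 0.060 without the preleukemic library.

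Of the stalk genes and Rpsa, all rose, with 0.82 ± 0.12 for Rplp1, 0.72 ± 0.14 for Rplp0, 0.62 ± 0.12 for Rplp2 and 0.82 ± 0.13 for Rpsa. Rpl5, Rpl10, Rpl11 and Rpl22 rose by 0.62, 0.61, 0.50 and 0.55, Rpl3 by 0.92 and Rps4x by 0.73, and each of these 6 genes, with Rplp0 and Rplp2, lost its call without the preleukemic library (edgeR adjusted p 0.057 to 0.11). Rpl11 also lost it without T-ALL#2 (0.071). Of the other paralog pairs, Rpl36al and Rpl39 rose by 0.63 and 0.67 and also lost their calls without it. Among the 11 members that did not pass were Rps27 (0.12 ± 0.11), Rps27rt (0.09 ± 0.13), Rpl7 (0.28), Rpl7l1 (0.40), Rpl13a, Rpl29, Rpl34, Rps9, Rps24 and Rps19bp1. Rps27 and Rps27rt had the smallest values of all, higher in WT and lower in the other 3 libraries. Of the 9 genes that parted in the leukemias, 6 rose here.

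Cycling cells had at least 15 UMIs of 97 cell-cycle genes (43 of S phase, 54 of G2/M) among 2000 UMIs, and made up 18.7% of WT, 28.7% of preleukemic, 41.1% of T-ALL#1 and 42.4% of T-ALL#2 cells. Ribosomal protein share did not move one way with cycling. The median was 17.8% in cycling against 18% in non-cycling cells of WT, 22.2% against 19.2% in the preleukemic library, 26.8% against 23.4% in T-ALL#1 and 34.4% against 38.0% in T-ALL#2. The differences of −0.20, 2.95, 3.40 and −3.70 percentage points had a mean of 0.61 (exact sign-flip permutation test over 4 libraries, two-sided p = 1.00). Without the preleukemic library or without T-ALL#1 the mean was −0.17 or −0.32, and without T-ALL#2 it was 2.05.

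Within marker classes, T-ALL#2 had the lower share in cycling cells of each of the 3 classes with enough cells (−3.9 to −4.05 points). In T-ALL#1 cycling cells were higher in 4 classes (1.60 to 3.08 points) and lower among cells with none of the 3 genes (−4.7 points). In the preleukemic library all 4 classes with enough cells were higher in cycling cells (0.05 to 3.58 points). In WT the 5 classes differed in direction, with 1.45 points in Il2ra-positive cells (10 cycling cells), 0.08 in cells with both coreceptors and −3.08 in cells with Cd4 alone. Cycling cells were deeper before thinning, with a median of 12679 against 4393 UMIs in WT and 24997 against 12352 in T-ALL#2, and 10.1 to 24.3% of cells lay within 3 UMIs of the threshold. At 4000 UMIs the difference was −4.67 points in WT and 0.95 in T-ALL#1.

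Over the same sums, 11 of 83 members rose and 2 fell in cycling cells by edgeR's quasi-likelihood test with the library as block, where 25.8% of all 11659 genes rose and 26.3% fell. In either direction this was a smaller part of the members than of all genes. Their median log2 fold change was 0.14, and −0.04 over all genes. This split depended on the scaling, since 7 rose and 9 fell when sums were scaled to library size alone. On that scale 21 members were lower and 6 higher in 4 of 4 libraries, counts that were not made over all genes. Leaving out WT, the preleukemic library, T-ALL#1 or T-ALL#2 gave 5, 4, 4 and 33 members raised and 0, 0, 0 and 2 lowered.

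Rps27l again rose most, at 537 against 230 CPM in WT, 577 against 324 in preleukemic, 600 against 307 in T-ALL#1 and 723 against 494 in T-ALL#2 (log2 fold change 1.06 ± 0.14, edgeR adjusted p = 0.00088). Cycling and non-cycling cells did not overlap across the libraries. Rps19bp1 (0.91 ± 0.13), Rpl7l1 (0.58 ± 0.10) and Rpl14 (0.56 ± 0.12) also rose, in 4 of 4 libraries and whichever library was left out. Without the preleukemic library or T-ALL#1, Rps27l and these 3 genes made up the 4 members that passed. Rps2 rose by 0.51 ± 0.15 and was higher in 3 of 4 libraries, and it lost its call without WT, the preleukemic library or T-ALL#1. Rpl36al, Rpl41, Rpsa, Rpl4 and Rpl31 also rose, by 0.32 to 0.41. Rps27 fell by 0.30 on the log2 scale, from 5475 to 3626 CPM in WT, 5730 to 4232 in preleukemic, 2464 to 1776 in T-ALL#1 and 3600 to 2774 in T-ALL#2 (SE 0.10, edgeR adjusted p = 0.030). Rps27rt fell by 0.37 (SE 0.10, edgeR adjusted p = 0.016). Both were lower in 4 of 4 libraries, and both lost the call without WT, the preleukemic library or T-ALL#1. None of Rpl5, Rpl10, Rpl11, Rpl22, Rpl22l1, Rplp0, Rplp1 and Rplp2 passed, with log2 fold changes of 0.11 to 0.30.

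**Figure D5:**
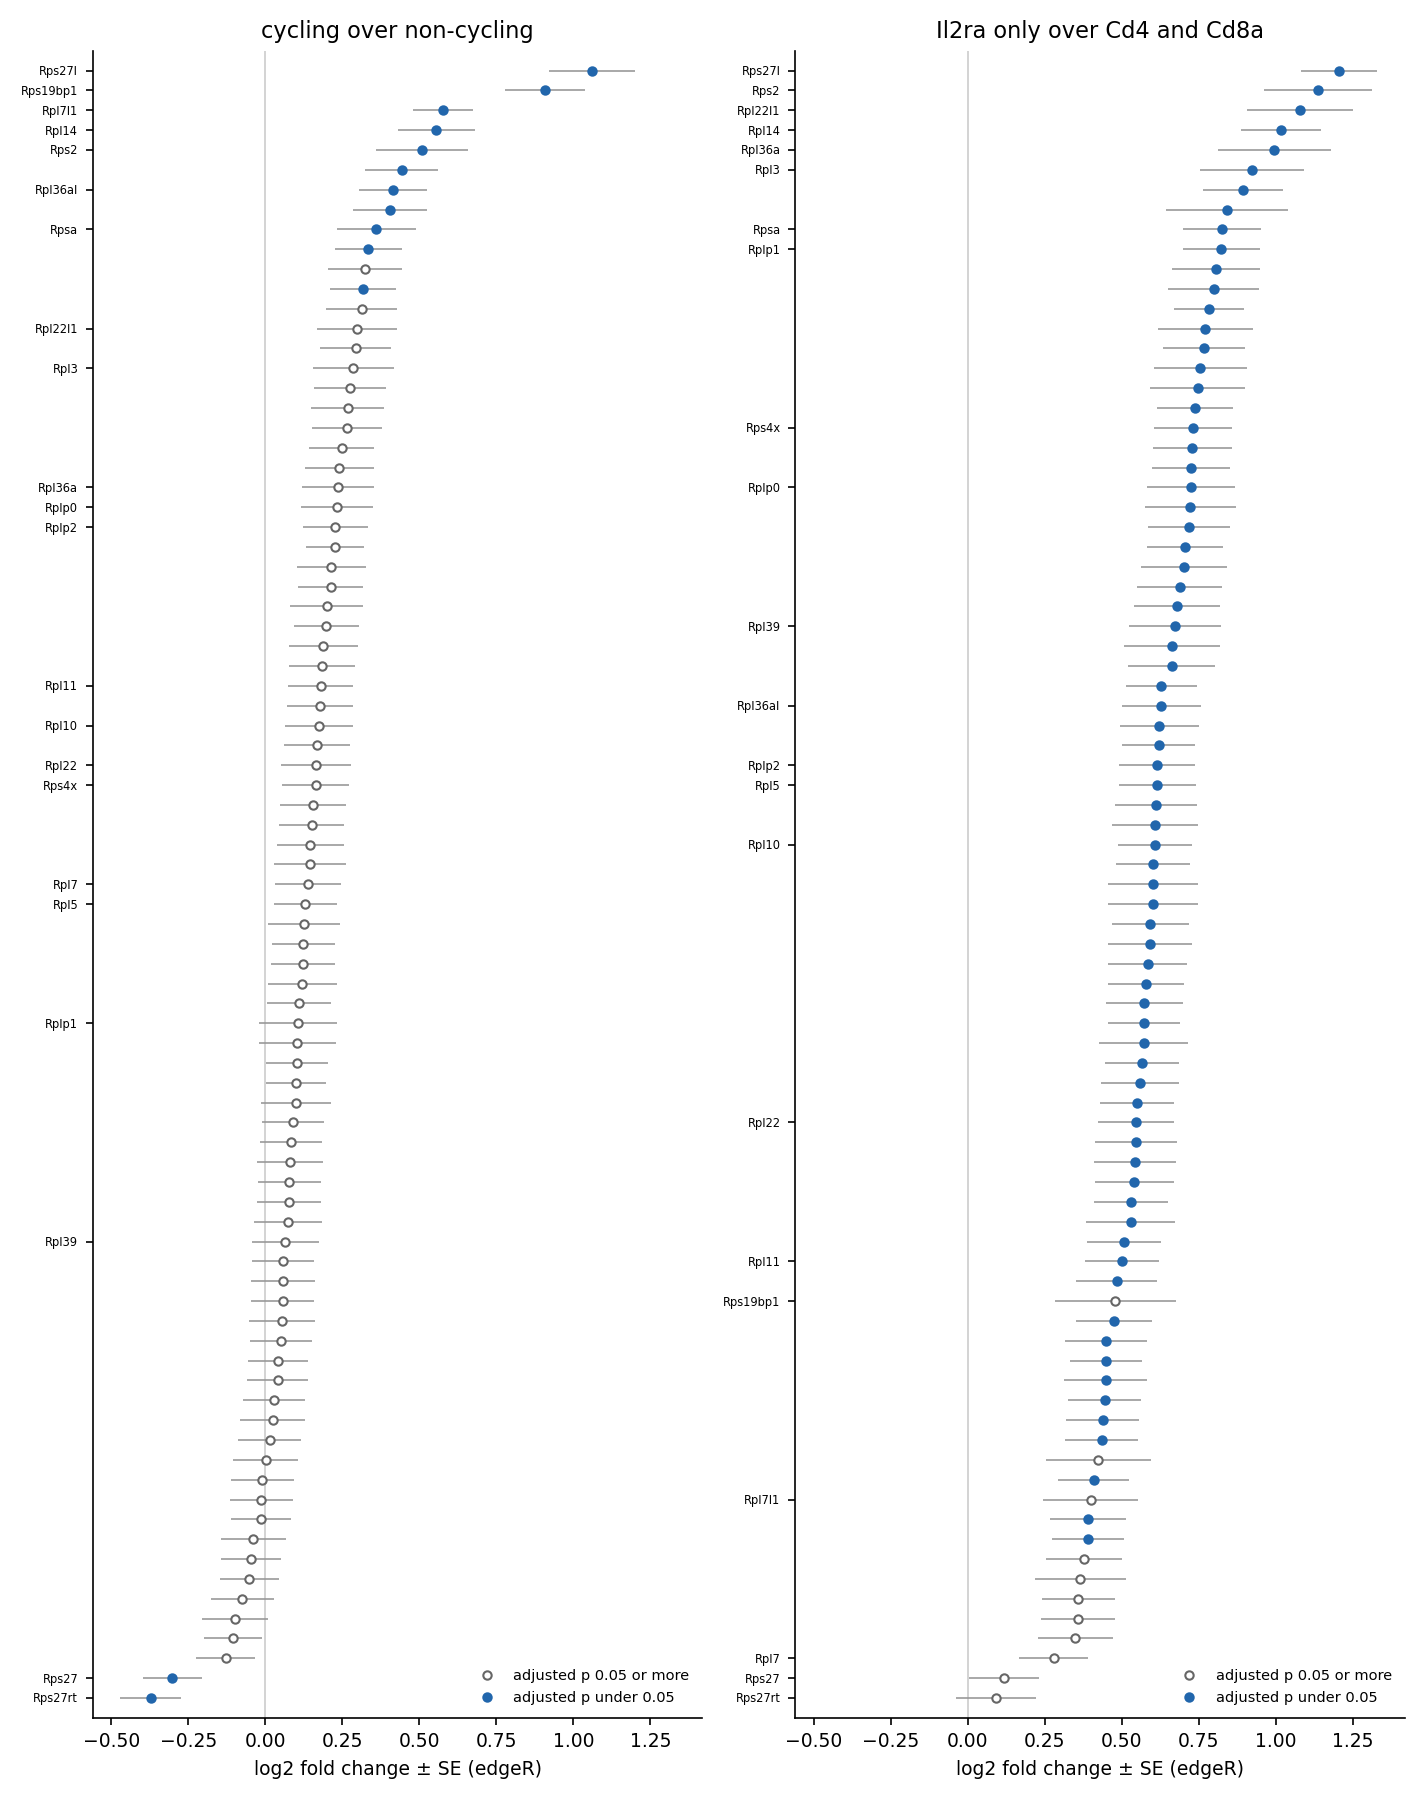
Log2 fold change (± SE) of each of the 83 measured members from edgeR fits over 8 sums of 4 libraries, for cycling over non-cycling cells and for Il2ra-positive cells over cells with Cd4 and Cd8a, with filled points at an adjusted p under 0.05 and names for the genes singled out by rule. In the second comparison 72 members rose, while in the first 11 rose and 2 fell, led by Rps27l at 1.06.

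Rps27l led both comparisons while Rps27 did not rise in either, and the share of the pair's UMIs that came from Rps27l (Rps27rt counted with Rps27) shows this by library. UMIs count mRNA ends, and no correction for length was made. Whether capture of short mRNAs differed between libraries was not tested. Over all cells the share was 6.57% in WT and 7.65% in the preleukemic library, against 18% in T-ALL#1 and 15.9% in the other leukemia. It was 12.3% in cycling against 3.79% in non-cycling WT cells, 11.3% against 5.03% in preleukemic, 22.8% against 9.78% in T-ALL#1 and 19.8% against 11.5% in T-ALL#2. In each library the cycling cells were the higher, and the leukemias exceeded the other libraries in either state. In Il2ra-positive cells it was 9.76%, 9.26%, 20.1% and 16.8%, against 5.95%, 4.35%, 9.81% and 8.02% in cells with both coreceptors. Between libraries Rps27l itself was at 341, 442, 504 and 626 CPM, while Rps27 was among the 9 genes with low levels in the leukemias, and both values enter this share. The pair was singled out after its values were seen.

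Rpl22l1 made up 28.7%, 28.7%, 29.0% and 36.9% of the UMIs of Rpl22 and Rpl22l1, highest in T-ALL#2, where it stood at 1440 CPM against 625, 681 and 781 CPM in the other libraries. In Il2ra-positive cells its share was 33.5%, 29.99%, 29.1% and 38.2%, against 22.1%, 21.04%, 25.6% and 32.1% in cells with both coreceptors. Rpl36al made up 29.4%, 23.7%, 29.8% and 27.6% of its pair with Rpl36a. In Il2ra-positive cells that share was 25.6%, 22.1%, 30.2% and 28.2%, against 40.0%, 24.7%, 32.02% and 30.9% in cells with both coreceptors, so it was the lower in each library, with the widest gap in WT. Rpl7l1, which acts in ribosome assembly, made up 3.88%, 2.98%, 2.93% and 2.13% of its pair with Rpl7.

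The study separated leukemic DN3 cells (Il2ra-positive, without Cd4, Cd8a and Cd44) into dormant dDN3 and proliferative pDN3 cells. It did so by clustering, and merged clusters by their Mki67 expression. Here single cells were split instead by the level of the cell-cycle genes used above, and the study's names are kept for the resulting sides. These dDN3 and pDN3 cells had median shares at 2000 UMIs of 27.9% and 27.9% in T-ALL#1 (159 and 147 cells) and 39.4% and 34.8% in T-ALL#2 (198 and 236 cells). The preleukemic library gave 25.2% and 27.8%, and WT 24.1% and 26.9%, the latter from 9 pDN3 cells. T-ALL#2 alone had the higher share in dDN3 cells. Over 4 sums of the leukemias, edgeR called 0 members in either direction, against 1.99% of all 14634 genes higher and 3.69% lower in dDN3 cells (5.68% in either direction). In simulated counts this fit called none of the changes placed in them, so a member without a call here is not shown to be unchanged. By CPM, 68 of 83 members were higher and 7 lower in dDN3 cells of both leukemias, with median log2 ratios of 0.16 in T-ALL#1 and 0.18 in T-ALL#2. After TMM scaling the median log2 fold change was 0.09, and 0.02 over all genes. DESeq2 also called 0, and at an unadjusted p under 0.05 there were 0 members higher and 2 lower. With the animal as a block, which pairs the cells of a leukemia, those 2 fell and none rose (9.24% of all genes fell and 6.43% rose). Rps27l fell by 0.78 (SE 0.18, edgeR adjusted p = 0.00024) and Rps19bp1 by 0.69 (SE 0.19, adjusted p = 0.0040). Both p-values come from 4 sums of 2 animals, with few residual degrees of freedom, and lean on variance pooled over genes. Rps27l was at 379 against 706 CPM in T-ALL#1 and 532 against 748 in T-ALL#2.

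Other genes of the translation machinery gave the setting for these values. In Il2ra-positive cells 43 of 58 ribosome biogenesis genes rose, led by Rrp1b (2.08 ± 0.40), Mybbp1a (1.55 ± 0.36) and the snoRNP component Nhp2 (1.54 ± 0.16), and none fell. Of all genes tested in this comparison 10.6% rose and 7.87% fell. Of a list of other mRNAs known for an oligopyrimidine tract, 2 of which had a tract of at least 6 in the start window used here, 4 of 5 rose, with the nucleolar chaperone Npm1 at 1.30 ± 0.15, and Rack1 rose by 0.50 ± 0.13. Initiation factors and their regulators rose in 16 of 33 cases, with Eif5a at 1.21 ± 0.13, elongation factors in 4 of 5, with Eef1g at 1.03 ± 0.15, and RNA polymerase I genes in 3 of 14. Mitochondrial ribosomal protein genes rose in 31 of 77 cases, led by Mrpl17 (1.23 ± 0.18). In cycling cells the contrast with the cytosolic ribosomal proteins was plain, with 50 of 58 biogenesis genes raised, led by Nop58 (1.35 ± 0.17), and 69 of 78 mitochondrial ribosomal protein genes, led by Mrpl51 (1.25 ± 0.12). Of the initiation list 24 of 33 rose and 1 fell there, of elongation factors 2 of 5 rose, of polymerase I genes 5 of 14 and of the oligopyrimidine list 3 of 5. Of all genes 25.8% rose and 26.3% fell in cycling cells. The counts for elongation factors, polymerase I and the oligopyrimidine list rest on few genes. In dDN3 cells of the leukemias 3 of 58 biogenesis genes, 4 of 78 mitochondrial ribosomal protein genes and 2 of 33 of the initiation list were lower and none was higher, where 3.69% of all genes were lower. Among them were Nolc1 (−1.01 ± 0.31), Mrpl14 (−1.11 ± 0.30), the initiation factor subunit Eif2s1 (−0.93 ± 0.31) and Eif4ebp1 (−1.18 ± 0.33), which encodes a repressor of initiation. With a filter on low counts 37 genes of any kind were called in this fit, against 831. With so few calls, the biogenesis, mitochondrial and initiation lists are not shown to differ from all genes in dDN3 cells. Over the preleukemic library, 55 of 57 measured biogenesis genes lay above 0 in T-ALL#1 and 52 of 57 in T-ALL#2, as did all 5 elongation factors in both. Of all genes at 10 CPM or more, 41% lay above 0 in T-ALL#1 and 28.3% in T-ALL#2.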

How the data were processed

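The authors deposited matrices of UMI counts per gene and barcode, without normalization, made with Cell Ranger per the file headers and against mm10 per the submitters' processing notes. The labels give the chemistry as 3′ kits of more than 1 version. Cells were kept with over 500 genes and under 10% mitochondrial UMIs, with a further limit on UMIs in T-ALL#2. No doublet caller was run. Shares per cell, CPM of summed counts with exact Poisson intervals, medians with order-statistic 95% intervals and Clopper-Pearson intervals were computed in Python 3.11.15 (numpy 2.4.6, scipy 1.17.1, pandas 2.3.3), and intervals cover counting error or the spread of cells only. Cells were thinned to 2000 UMIs to call cycling state (72.96 list UMIs per 10000, from a 2-means split of DN3-gated leukemic cells) and marker class. A UMI of Cd4, Cd8a or Il2ra at that depth counted as detection.

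Unthinned counts were summed per library and state and tested with edgeR 4.0.16 (quasi-likelihood, TMM, Benjamini-Hochberg adjustment over all genes tested) in R 4.3.3, with edgeR's filterByExpr in the cycling and class fits. The study's methods remove genes without reads and mention no block. The DN3 fit likewise kept genes with at least 1 UMI and had no block. DESeq2 1.42.0 was run beside it. In the other fits the library was a block because both sums come from the same animal. Sums of a library deviated together from the means of their states (correlations of 0.78 to 0.91 for cycling, 0.44 to 0.73 for class and 0.75 for DN3). The fits were tested on simulated counts first, where the DN3 fit called none of the changed genes and the other fits most or many of the larger changes but few of the smaller, so small changes of members can lack a call. Alternatives were other cell filters and thinning depths, other scalings, DESeq2, fits with or without the block and leaving out each library. Since the sums are of cells from single animals, p-values of the cycling and class fits measure the spread between 4 animals of different genotype and stage. The DN3 fits rest on the 2 leukemic animals alone. Without the block the paired sums of an animal are treated as independent. With it few residual degrees of freedom remain, so its p-values lean on variance pooled over genes.

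Named genes were the members that parted from the common shift, up to 5 raised and 5 lowered members of each fit, a list of paralogs and members of known role, and the 3 largest called genes of other lists. Members under 10 CPM are given by UMIs alone. The members and lists were chosen with earlier results of these data known. Start windows are from RefSeq (GRCm38.p6), and 66 of 86 members matched. Coding lengths are from GENCODE M21. Results on some genes, and the alternative that added genes outside the rule, are not reported here.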

Additional observations from a re-analysis of the deposited data

Results flagged for a closer look

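The difference between cycling and non-cycling cells in ribosomal protein share was −0.20 percentage points in WT and 2.95 in the preleukemic library. The directions are opposite, each comes from 1 library, and the difference between them was not tested. At 4000 UMIs per cell these values were −4.67 and 3.22.

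The barcodes of T-ALL#2 with at most 100 UMIs, which enter no comparison between groups, held 25.7% of their UMIs in ribosomal protein genes and 24.8% in mitochondrial genes, over 1814932 UMIs.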

How the results depend on the processing

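The order of the 4 libraries by median share held under the other cell filters, summed UMIs and thinning (WT lowest, T-ALL#2 highest), but not in cells from 4000 to under 8000 UMIs, where the preleukemic library was lowest. A mitochondrial limit of 5% gave 17.2% in WT and 18.7% in preleukemic cells. With no such limit the libraries were at 11.6%, 17.7%, 23.1% and 34.3%, from summed UMIs at 20.7%, 23.7%, 27.2% and 35.9%, and with thinning WT and preleukemic cells at 17.9% and 20.1%. The median member log2 ratio from WT to preleukemic was 0.12 with the 5% limit, 0.24 with an upper limit on genes, 0.25 with TMM factors, 0.25 per UMI outside the members and 0.36 with cells weighted equally. T-ALL#1 over preleukemic gave 0.40 (5% limit), 0.63 (TMM), 0.44 (outside the members) and 0.48 (equal weights), and T-ALL#2 over preleukemic 1.16, 0.91 and 0.86 under the last 3. The TMM factors were 1.17, 1.13, 0.945 and 0.799. Members that parted numbered 2 with equal weights and 0 with a departure of 1 from WT to preleukemic, and 9 and 4 with a departure of 1 in T-ALL#1 and T-ALL#2.

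Signs turned for Rplp2 (−0.041) and Rpsa (−0.059) from WT to preleukemic with the 5% limit, and for Rps27rt in T-ALL#1 with TMM (0.063). In T-ALL#2 they turned for Rpl29 (0.047), Rpl35 (0.22), Rpl38 (0.35) and Rps28 (0.42) with TMM, for Rpl38 (0.10) and Rps28 (0.17) per UMI outside the members and for Rps28 (0.14) with equal weights. TMM and the count of UMIs outside the members shift all genes of a library alike.

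The mean cycling difference in share was −1.08 at 4000 UMIs, and −0.32 to 2.05 with 1 library left out. The Il2ra difference was 5.82 to 9.26 points with 1 library left out and 6.38 to 9.44 under the other alternatives. Members raised in cycling cells numbered 7 by library size, 0 without the replicate block and 4 to 33 with a library left out, and those lowered 9, 0 and 0 to 2. Members raised in Il2ra-positive cells numbered 33 by library size, 0 without the replicate block (2 genes of any kind were called) and 8 to 75 with a library left out. With the replicate block, 2 members fell in dDN3 cells. Genes of any kind called there numbered 831, 2293 with the block and 37 with a filter on low counts. Leaving a leukemia out of the DN3 fit was not run, since no residual degrees of freedom remain. Of the alternatives for single genes, 645 kept direction and call or moved by less than the counting interval, 363 moved further, 62 lost a call and 7 gained one. The cause of these changes was not tested. Depth left 991 WT cells out of the thinned comparisons. The WT class of Il2ra-positive cells held 48 cells and the T-ALL#2 class with both coreceptors 39, which limits the precision of their medians.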
